A study of Homo sapiens with 71 samples.

Results

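The genes AKR1B1, MRPS6, NFAT5 and AQP3 were followed in HepG2 cells, an established human hepatoma line, after exposure to river water. They were chosen by gene symbol from a table of 31012 complete entries, with their values in these samples already known, so their own levels and the calls they received in a fit of all features are given as a description, and nothing is tested with them. All 4 had enough reads to enter the fit, which covered 6947 features. The cells of a pair of flasks were combined, spread over dishes and grown for 72 hours. For the exposure, concentrated medium was diluted with filtered field water, which made up 75% of the final volume, or with the same share of purified water in the controls, and the cells stayed in it for 48 hours. The field water came from 16 sites on tributaries of the Great Lakes. Each site, named by its code (RRMI, CROH and so on), had 4 dishes, except MIWI with 3, and the controls had 8 (CTRL). The labels give no chemistry or osmolality of the waters. RNA was measured with TempO-Seq, which counts short probe pairs ligated on the transcripts, so each gene was read at its probe target and not along its length. Because all dishes came from the same pooled cells, the spread between dishes is the spread of 1 cell population handled in parallel.

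Cells placed in a medium with more solute lose water and then gather small organic osmolytes, which restore their volume without disturbing proteins. NFAT5, also called TonEBP, is the transcription factor best known for directing this response, and its activity is regulated by protein modification and nuclear entry as well as by its mRNA level. AKR1B1 encodes aldose reductase, which makes the osmolyte sorbitol from glucose and is a classical NFAT5 target. SLC5A3 encodes the sodium-coupled transporter that brings in the osmolyte myo-inositol, and it is also a known NFAT5 target. SLC5A3 lies inside MRPS6, the gene of a protein of the small subunit of the mitochondrial ribosome. AQP3 is an aquaglyceroporin, a membrane channel for water and glycerol.

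The overlap at the MRPS6 locus matters for reading its values. In the GRCh38 annotation MRPS6 occupies chr21:34073224-34143034 on the plus strand, and SLC5A3 occupies chr21:34073570-34106262 on the same strand. SLC5A3 has 2 exons. The 176 bases of exon 1 all fall within annotated MRPS6 exons, and 2 MRPS6 first exons end at the same base as it does. Exon 2, of 11400 bases, shares 97 bases with exons of other MRPS6 transcripts. The promoter windows of the 2 genes in the RefSeq table (GRCh38.p14) were identical. Where the TempO-Seq probes lie is not stated in the labels, so reads listed under MRPS6 are not assigned below to one of the 2 transcripts, and the SLC5A3 entry was not analysed here. AKR1B1 lies at chr7:134442350-134459284 on the minus strand, NFAT5 at chr16:69565094-69704666 on the plus strand and AQP3 at chr9:33441154-33447633 on the minus strand.

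The upstream sequences of MRPS6 and AKR1B1 are shown because the first serves 2 genes and because they have contrasting base composition. RefSeq promoter entries were found for 3 of the 4 genes, AKR1B1, MRPS6 and AQP3. The sequences run 5′ to 3′ on the gene's strand and hold the bases upstream of the start used in the RefSeq table that lie outside annotated exons. They lie at chr21:34073328-34073522 on the plus strand and chr7:134459285-134459489 on the minus strand. The chr21 stretch falls inside the annotated MRPS6 span, which begins at chr21:34073224, and before the SLC5A3 start at chr21:34073570. Capitals mark GGGCGG on either strand, the core of the box bound by Sp1-type factors.
MRPS6 and SLC5A3: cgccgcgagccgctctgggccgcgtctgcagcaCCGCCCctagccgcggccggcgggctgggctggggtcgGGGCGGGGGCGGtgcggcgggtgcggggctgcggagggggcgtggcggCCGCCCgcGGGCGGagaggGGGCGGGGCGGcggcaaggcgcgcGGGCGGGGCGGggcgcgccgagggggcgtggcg
AKR1B1: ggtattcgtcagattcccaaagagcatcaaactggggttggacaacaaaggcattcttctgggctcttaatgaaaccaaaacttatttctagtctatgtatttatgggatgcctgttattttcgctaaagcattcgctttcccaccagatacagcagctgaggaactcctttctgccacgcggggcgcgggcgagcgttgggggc
The shared MRPS6 and SLC5A3 sequence of 195 bases had a GC content of 88.2% and held 9 matches to GGGCGG, counted on both strands. The AKR1B1 sequence of 205 bases had a GC content of 48.8% and held none. Over the 35116 upstream windows of 250 bases in the table the median GC content was 58%, and GGGCGG occurred in 42.6% of windows. In the full window of AKR1B1 it occurred once, in the stretch left out here. The letters TGGAAA, the core of the element that NFAT5 binds, was searched on both strands and was absent from the windows of AKR1B1, MRPS6 and AQP3, while 18.0% of all windows held it. The longer and looser consensus of the tonicity-responsive enhancer, which overlaps with that core, was absent from them as well, against 19.4% of all windows. The absence says only that these letters are not in these short windows.

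Control libraries held 8183185 to 14519869 counts and site libraries 2912835 to 9893173, apart from VROH 2 with 8840. VROH 2, CRMI 1 and SRMI 3 stood apart from their groups, with a spread of 2.83, 1.84 and 1.20 on the log2 scale around the group over 4249 well-measured features, while the next library, GRNY 4, had 0.973. Levels are given in CPM, the count scaled to a library of 1000000 counts with TMM factors applied, and results that rest on these 3 libraries are given with and without them. All 13 hepatocyte markers had at least 100 counts, and their summed level was 178800 to 211401 CPM in controls and 162009 to 249645 at the sites. Of the 7 immune markers 5 had at least 100 counts, with a summed 1498 to 2213 CPM in controls, 2236 to 2519 at RRMI and 671 to 3603 over the sites, while PTPRC had no counts. The 5 squamous markers summed to at most 0.268 CPM, and the 8 fibroblast and endothelial markers to 35.6 to 59.8 CPM in controls and 15.3 to 64.9 at the sites. Their part in the results was not tested.

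MRPS6 was measured deeply, with 192385 counts over all libraries, and its group level was higher than in the controls at each of the 16 sites. With the replicate number as a block, which leaves out MIWI, the change was above 0 at 13 of 15 sites and -0.01 at MAWI and -0.00 at MROH. In the controls it was 239 CPM at the lowest, 320 at the median and 393 at the highest (mean 320 ± 48.1, SD, n = 8). At RRMI the 4 dishes had 644, 826, 663 and 915 CPM (762 ± 131, SD, n = 4). All 4 lay well above the highest control, and the group level was 2.32-fold that of the controls. The change was 1.25 ± 0.19 on the log2 scale (SE of the edgeR fit). At CROH the dishes had 644, 613, 540 and 536 CPM, a change of 0.86 ± 0.19. At LRMN they had 551, 469, 492 and 627 CPM, a change of 0.74 ± 0.19. The CROH and LRMN dishes were all above every control, and each site's level was lower than at RRMI.

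The middle of the MRPS6 range was a series of small steps. At JRMI the dishes had 464, 606, 459 and 533 CPM (0.69 ± 0.19), all above the controls. GRMI had 442, 499, 427 and 449 CPM (0.50 ± 0.20) and FRWI 460, 433, 412 and 412 CPM (0.42 ± 0.20), also all above the controls. GRNY, with 432, 552, 462 and 341 CPM (0.48 ± 0.20), reached into the control range with 1 dish. CRMI 1 had 677 CPM, and the other 3 dishes of that site had 460, 373 and 452. The CRMI change was 0.62 ± 0.19 with CRMI 1 and 0.42 ± 0.13 without the 3 libraries that stood apart. VROH 2 had no MRPS6 count among its 8840, and the other 3 VROH dishes had 471, 497 and 497 CPM. The VROH change was 0.36 ± 0.20 with VROH 2 and 0.59 ± 0.12 without the 3 libraries. The lowest changes were at MAWI (0.13 ± 0.20), MROH (0.15 ± 0.20), SRMI (0.16 ± 0.20), IHIN (0.18 ± 0.20) and ORNY (0.19 ± 0.20), where dishes and controls overlapped.

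**Figure D1:**
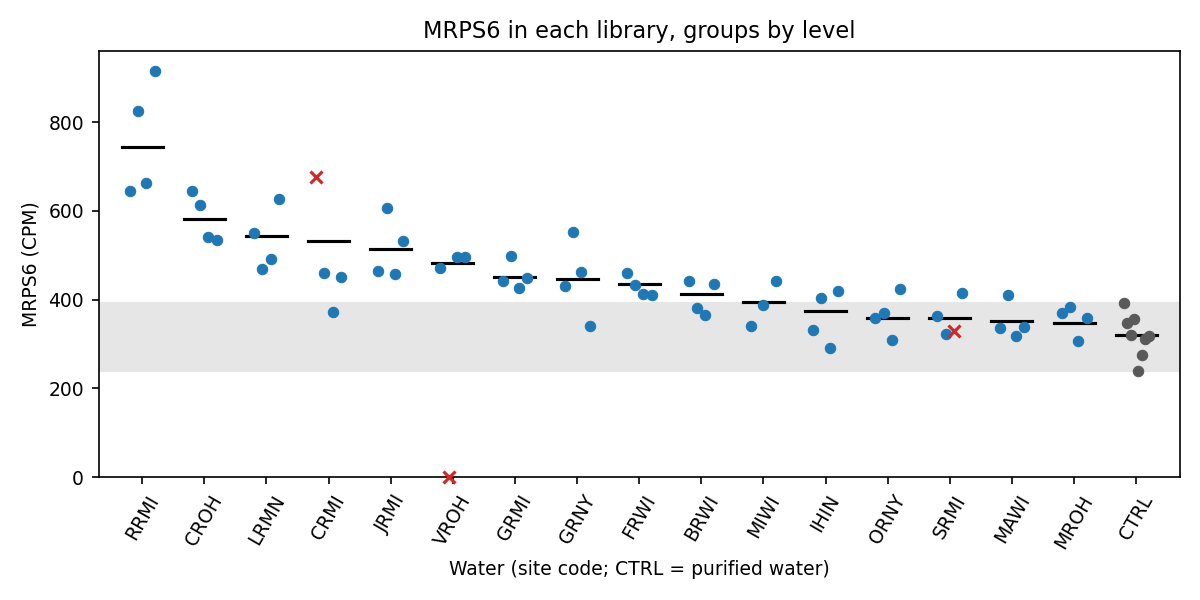
MRPS6 in CPM (vertical axis, linear from 0) for each library, with the 17 groups ordered by their level (horizontal axis). Points are libraries, red crosses the libraries VROH 2, CRMI 1 and SRMI 3, horizontal lines the group level from summed counts, and the grey band the range of the 8 controls. The RRMI dishes lie from 644 to 915 CPM, and the controls have the lowest group level.

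Ordered by group level, MRPS6 ran from RRMI, CROH and LRMN through CRMI, JRMI, VROH, GRMI, GRNY, FRWI, BRWI, MIWI, IHIN, ORNY, SRMI, MAWI and MROH down to the controls. Of the 16 neighbouring pairs, 14 had overlapping dishes when the 3 libraries that stood apart were left out. RRMI and CROH did not overlap, but the highest CROH dish (644.1 CPM) and the lowest RRMI dish (644.3 CPM) nearly met. LRMN and CRMI were also apart, but with CRMI 1 they overlapped. The place of CRMI in the order includes CRMI 1. The mean of the CRMI dishes was 491 CPM with CRMI 1 and 428 CPM without it. The span from the lowest to the highest site was 1.10 on the log2 scale, beside a spread between dishes of a group of 0.19. The level was above the highest control in every dish at 6 sites, RRMI, CROH, LRMN, JRMI, GRMI and FRWI. For comparison, the percentage of all 6947 features with every dish above the controls was 2.22 at RRMI, 3.71 at CROH, 4.62 at LRMN, 2.09 at JRMI, 1.55 at GRMI and 1.94 at FRWI. A higher fitted level than the controls at all 16 sites was found for 16 of the 6947 features, or 0.230%.

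With a Benjamini-Hochberg adjusted p under 0.05 in the edgeR fit as the threshold for a call, MRPS6 was called at RRMI, CROH and LRMN. The features called in all were 0.849% at RRMI, 2.14% at CROH and 5.01% at LRMN, and nothing is read from the MRPS6 calls, since the gene was chosen on these contrasts. Without the 3 libraries MRPS6 was called at 9 sites, adding CRMI, FRWI, GRMI, GRNY, JRMI and VROH. The features called in that fit were 2.86% at RRMI, 10.3% at CROH, 17.5% at LRMN, 8.01% at CRMI, 2.18% at FRWI, 0.549% at GRMI, 9.17% at GRNY, 2.91% at JRMI and 0.13% at VROH. The calls at RRMI and CROH were made in all 71 fits that left out 1 library. The LRMN call was lost in 1 of them, without LRMN 4. Calls were also gained, at CRMI in 5 of the 71 fits, and at GRNY and JRMI in the fit without VROH 2.

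AKR1B1 was a gene of few counts, 1107 over all libraries, and its values carry a large counting error. In the controls it was 1.27 CPM at the lowest, 1.91 at the median and 2.54 at the highest (mean 1.90 ± 0.486, SD, n = 8). At RRMI the 4 dishes had 5.07, 5.89, 6.66 and 4.26 CPM (5.47 ± 1.04, SD, n = 4), from 41, 45, 56 and 21 counts. All 4 were above the highest control. The summed counts gave 5.61 CPM at RRMI, with an exact Poisson 95% interval of 4.78 to 6.54, against 1.84 CPM in the controls, with an interval of 1.55 to 2.16. This is a 3.05-fold level, and the fitted change was 1.54 ± 0.28 on the log2 scale. These intervals cover counting error only.

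CROH had the second level of AKR1B1. Its dishes had 3.56, 4.75, 2.55 and 4.96 CPM (3.96 ± 1.12, SD, n = 4), a change of 1.05 ± 0.30. CROH 3 was just above the highest control and the other dishes were well above it. At VROH the dishes had 3.35, 0, 4.67 and 1.81 CPM, the 0 being VROH 2, and the change was 0.80 ± 0.33. At SRMI they had 1.91, 3.00, 3.40 and 3.46 CPM (0.67 ± 0.31) and at LRMN 2.70, 1.86, 4.16 and 3.38 CPM (0.67 ± 0.31). At each of these 3 sites 1 or more dishes fell into the control range. ORNY followed with 3.42, 2.48, 2.14 and 2.04 CPM (0.44 ± 0.30) and JRMI with 1.35, 1.68, 2.48 and 3.81 CPM (0.35 ± 0.32). GRNY, FRWI, MIWI, IHIN, MAWI, BRWI and MROH lay close to the controls, and BRWI 2 had no AKR1B1 count. By the summed counts, GRMI (-0.19 ± 0.37) and CRMI (-0.27 ± 0.37) were the only groups with a level under that of the controls. Dishes of both sites overlapped with the controls. The fitted change was also below 0 at BRWI (-0.13), MROH (-0.03) and MAWI (-0.00).

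**Figure D2:**
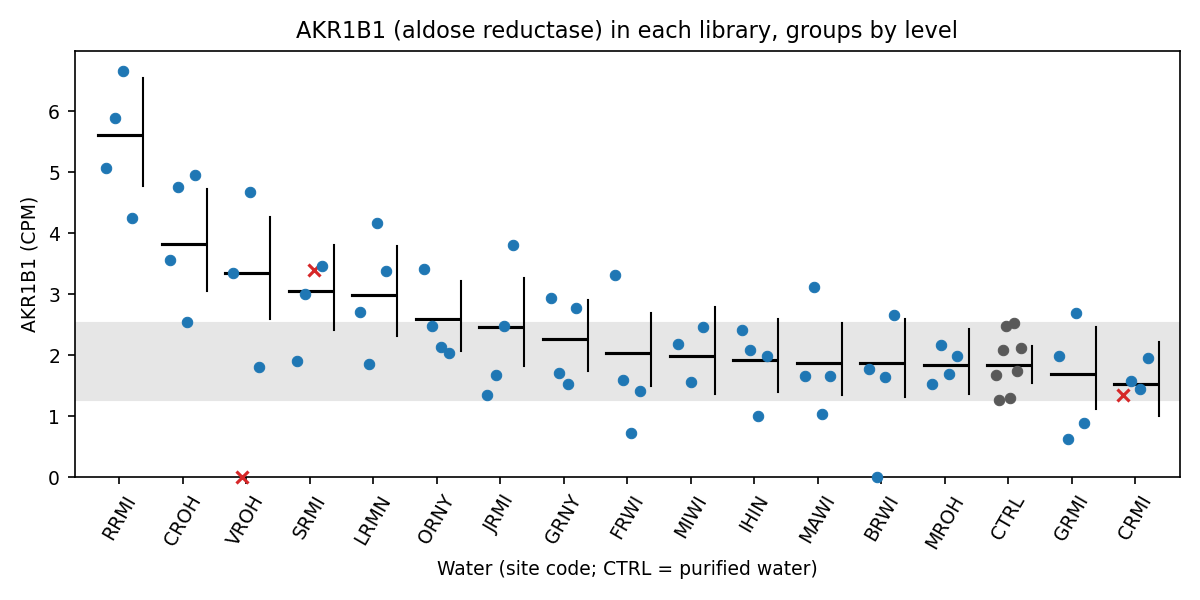
AKR1B1 in CPM (vertical axis, linear from 0) for each library, with the 17 groups ordered by level (horizontal axis). Points are libraries, red crosses the libraries VROH 2, CRMI 1 and SRMI 3, horizontal lines the level from the summed counts with its 95% Poisson interval beside it, and the grey band the range of the 8 controls. All RRMI and CROH dishes lie above the band, and all other sites reach into it.

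The fitted AKR1B1 change was above 0 at 11 sites and below 0 at 5. Dishes of neighbouring groups overlapped for all 16 pairs in the order, RRMI and CROH included, so the order is not resolved step by step. The span over the sites was 1.87 on the log2 scale, beside a spread between dishes of 0.50. AKR1B1 was called at RRMI and CROH, with all libraries and without the 3 that stood apart. The features called in all were 0.849% at RRMI and 2.14% at CROH, and as for MRPS6 nothing is read from the calls or from how often they recurred, since the gene was chosen on these contrasts. The RRMI call was made in all 71 fits that left out 1 library, and the CROH call in 60 of them. It was lost without any 1 of the CROH dishes, without any 1 of 6 control dishes (CTRL 1, 2, 3, 5, 7 and 8) and without JRMI 3. Around the group means, AKR1B1 levels went with the total count of the library (Pearson r = 0.384, Spearman rho = 0.311, over 68 libraries). Mean library totals, taken without the 3 libraries that stood apart, moved with the extremes of AKR1B1, although not throughout. RRMI had a mean of 7594646 counts, the second highest of the 16 sites after ORNY with 7623453. GRMI and CRMI, the lowest for AKR1B1, were the shallowest on this measure with 4195446 and 3484990. The CRMI mean leaves out CRMI 1, which held 7300281 counts and is part of the AKR1B1 level of CRMI. CROH, second for AKR1B1, was ninth with 5999098, and the controls were deeper than any site. The part of depth in the AKR1B1 levels was not tested.

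MRPS6 and AKR1B1 had their highest and second highest levels at the same sites, RRMI and CROH, but parted elsewhere. CRMI and GRMI had the 2 lowest levels of AKR1B1 and MRPS6 levels above the controls. At CRMI the MRPS6 level rests in part on CRMI 1, with 677 CPM. The other CRMI dishes had a mean of 428 CPM, and CRMI 3 (373 CPM) fell into the control range. SRMI and ORNY showed the opposite of CRMI and GRMI. Their AKR1B1 levels were 3.05 and 2.60 CPM from the summed counts. Their MRPS6 levels were 358 and 359 CPM, near the control level of 320. Over the 17 groups the log2 levels gave a Pearson r of 0.643 and a Spearman rho of 0.456, and without the 3 libraries 0.757 and 0.564. The groups share a cell pool and a normalization, and AKR1B1 rests on few counts. The dishes within a group did not show the same relation, with r = 0.124 and rho = 0.0929 for the deviations of 68 libraries from their group means.

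**Figure D3:**
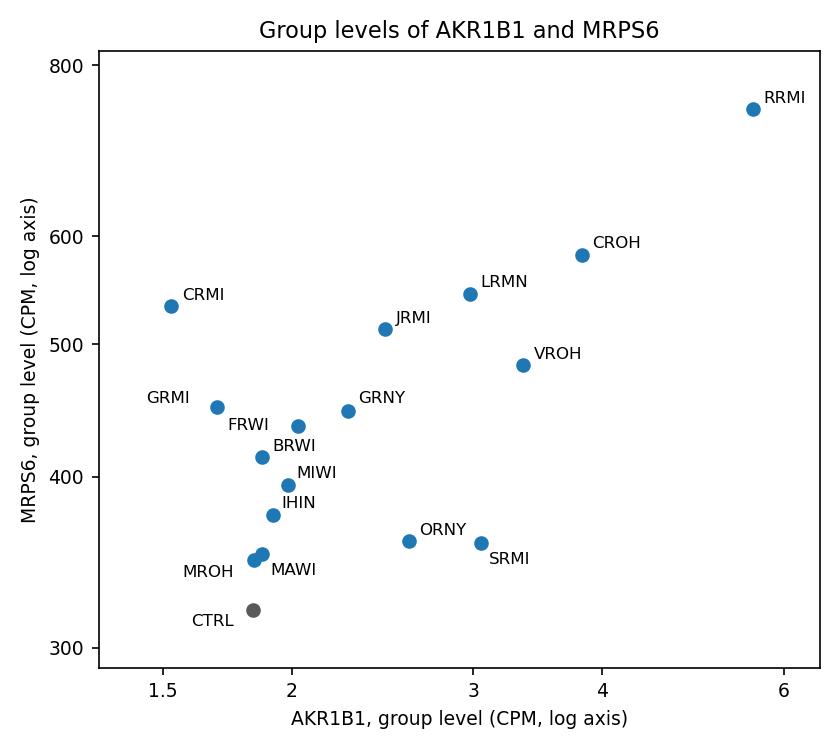
Group level of MRPS6 (vertical axis, CPM, log scale) against that of AKR1B1 (horizontal axis, CPM, log scale), each from the summed counts of a group. Points are the 16 sites (blue) and the controls (grey). RRMI and CROH are highest for both genes, while CRMI is high for MRPS6 alone and SRMI and ORNY for AKR1B1 alone.

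NFAT5, the regulator, varied little in mRNA level and was called at none of the sites, with or without the 3 libraries. In the controls it was 215 CPM at the lowest, 248 at the median and 266 at the highest (mean 244 ± 15.9, SD, n = 8). At RRMI, where MRPS6 and AKR1B1 were highest, its dishes had 165, 287, 283 and 325 CPM, and at CROH they had 233, 250, 183 and 232 CPM. The RRMI dishes lay on both sides of the control range (change 0.12 ± 0.24), and the CROH dishes lay within it or below it (-0.12 at the group level). The highest NFAT5 level was at GRMI, with 293, 326, 343 and 334 CPM and a change of 0.41 ± 0.24, followed by MIWI with 296, 346 and 285 CPM. Every dish of these 2 sites was above the controls, as was the case for 1.55% of features at GRMI and 1.67% at MIWI. GRMI was among the lowest groups for AKR1B1.

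The lowest NFAT5 level was at SRMI, with 272, 259, 39.8 and 209 CPM. The 39.8 CPM was SRMI 3, and the SRMI change moved from -0.32 to 0.02 without the 3 libraries that stood apart. The fitted change was above 0 at 13 sites, or 14 without those libraries. The span over the sites was 0.644 on the log2 scale, and 15 of 16 neighbouring pairs overlapped. The other pair, CRMI and CROH, was apart only when CRMI 1, at 121 CPM, was left out. CRMI 2, CRMI 3 and CRMI 4 had 342, 277 and 311 CPM, all above the highest control. The CRMI change moved from 0.11 to 0.34 without the 3 libraries. The share of all features with these CRMI dishes above the controls was not counted. Across groups NFAT5 had an r of 0.00 with MRPS6 and of -0.27 with AKR1B1, and of -0.03 and -0.47 without the 3 libraries. Within groups NFAT5 and MRPS6 deviated together, with r = 0.506 and rho = 0.454 over 68 libraries that share cells and normalization.

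AQP3 was at the edge of detection, with 756 counts over all libraries. In the controls it was 0.724 CPM at the lowest, 1.67 at the median and 2.55 at the highest (mean 1.68 ± 0.511, SD, n = 8). At GRNY, the highest site, the dishes had 1.63, 2.09, 2.29 and 3.17 CPM (0.42 ± 0.31). At MIWI, the lowest, they had 0.274, 1.81 and 1.14 CPM (-0.49 ± 0.40). Both overlapped with the controls. At RRMI the dishes had 1.24, 1.83, 1.55 and 4.26 CPM, and the change turned from 0.32 to -0.13 without RRMI 4. The change was above 0 at 8 sites and below 0 at 8, no site lay apart from the controls, all 16 neighbouring pairs overlapped, and no site was called. The SE of the AQP3 change, 0.31 at GRNY and 0.40 at MIWI, was close to the size of the change itself.

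**Figure D4:**
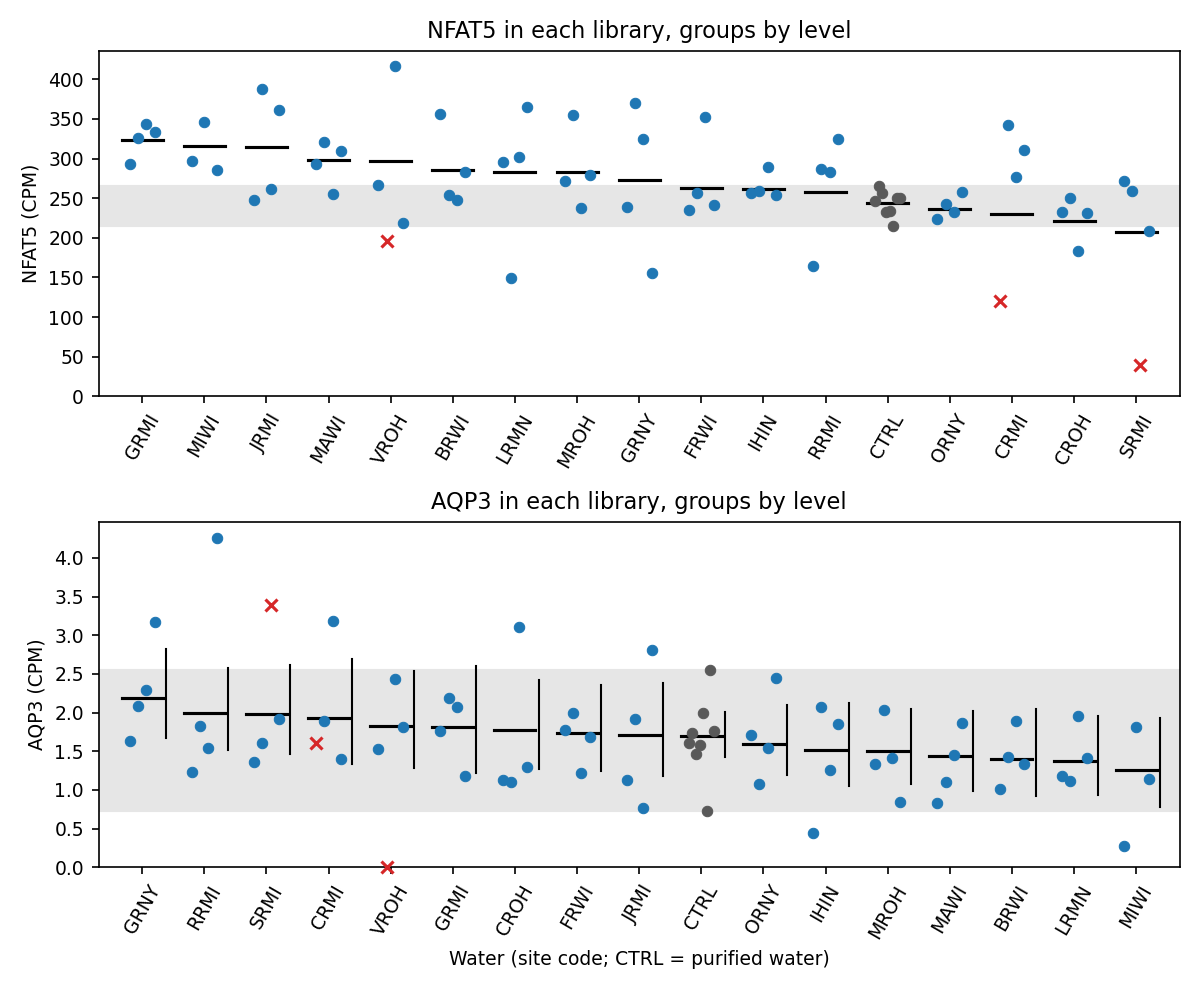
NFAT5 (upper panel) and AQP3 (lower panel) in CPM (vertical axes, linear from 0) for each library, with the groups ordered by level within each panel. Points are libraries, red crosses VROH 2, CRMI 1 and SRMI 3, horizontal lines the group level from summed counts (with its 95% Poisson interval for AQP3), and grey bands the range of the 8 controls. GRMI and MIWI lie above the NFAT5 band, and every AQP3 group reaches into its band.

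The other genes of the osmotic response were taken from 5 lists of 70 genes, of which 47 were tested. An F test over the 16 sites in the edgeR fit called 16 of the 47 (34.0%), beside 29.8% of all features tested. Without the 3 libraries it called 27 of 47 (57.4%), beside 49.8%. At RRMI none of the 47 was called against the controls in either direction, at CROH 1 was higher, and at LRMN 2 were higher. The features called higher in all were 0.518% at RRMI, 0.835% at CROH and 2.2% at LRMN. Without the 3 libraries, 3 were higher and 1 lower at RRMI, 4 and 2 at CROH, and 5 and 2 at LRMN. In that fit 1.45% of all features were higher and 1.42% lower at RRMI, 4.32% and 5.93% at CROH, and 9.34% and 8.2% at LRMN. The median log2 change of the 47 genes was -0.04 at RRMI, 0.06 at CROH and -0.07 at LRMN, beside medians over all features of -0.00, 0.01 and -0.01.

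Among the enzymes that make or break down osmolytes, 7 of 15 tested genes were called between sites, and 10 without the 3 libraries. These shares were 46.7% and 66.7%, beside 29.8% and 49.8% of all features. The fitted change was above 0 for 7 of 15 at RRMI, 9 at CROH and 6 at LRMN, with medians of -0.04, 0.05 and -0.20. It ran from -0.49 to 0.51 at RRMI, from -1.18 to 0.57 at CROH and from -0.91 to 0.72 at LRMN. PNPLA6, a lysophospholipase that yields the osmolyte glycerophosphocholine, was 87.7 ± 9.59 CPM in the controls (SD, n = 8). It rose to 136 ± 29.8 CPM at LRMN (0.64 ± 0.15, edgeR adjusted p = 0.00676) and to 130 ± 17.5 CPM at CROH (0.57 ± 0.15, edgeR adjusted p = 0.0316), with all 4 dishes above the controls at both. At RRMI it was 120 ± 17.1 CPM (0.45 ± 0.15), with an edgeR adjusted p of 0.225, or 0.0135 without the 3 libraries. IMPA1, which releases free myo-inositol from its phosphate, was 54.6 ± 4.31 CPM in the controls and rose to 89.8 ± 12.8 CPM at LRMN (0.72 ± 0.15, edgeR adjusted p = 0.00129). At RRMI IMPA1 was 77.7 ± 8.05 CPM, with all 4 dishes above the controls (0.51 ± 0.15). Its edgeR adjusted p there was 0.0887, and 0.00320 without the 3 libraries.

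IMPA2, the second inositol monophosphatase, and KHK, which phosphorylates fructose, differed between sites (edgeR F test, adjusted p = 0.00717 and 0.0112). Their lowest and highest sites were CROH and IHIN for IMPA2, and LRMN and CRMI for KHK. Both had fitted changes below 0 at RRMI (-0.23 and -0.27), CROH (-0.51 and -0.17) and LRMN (-0.50 and -0.39). With all libraries neither was called at these sites, and without the 3 libraries KHK was called lower at LRMN (edgeR adjusted p = 0.00586). ISYNA1, which makes inositol phosphate from glucose phosphate, had its highest level at RRMI, 44.5 ± 7.43 CPM against 37.4 ± 3.26 CPM in the controls. Its difference between sites (edgeR F test, adjusted p = 0.0494) was lost in 35 of the fits that left out 1 library. GDPD5, which degrades glycerophosphocholine, was not called between sites (edgeR F test, adjusted p = 0.0835).

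Of the genes that signal upstream of NFAT5 or act with it, 4 of 14 were called between sites, and 7 without the 3 libraries. These shares were 28.6% and 50%, close to the 29.8% and 49.8% of all features. The 4 called with all libraries were MAP3K3, FYN, ATM and MAPK14, which encode protein kinases. FYN and ATM had fitted changes below 0 at RRMI (-0.62 and -0.43), CROH (-0.67 and -0.82) and LRMN (-0.66 and -0.72), and with all libraries neither was called at these sites. Without the 3 libraries ATM was called lower at CROH (edgeR adjusted p = 0.0146) and LRMN (edgeR adjusted p = 0.0231), and FYN at none of them. The p38 kinase gene MAPK14 fell at CRMI to 32.3 ± 14.3 CPM, against 68.6 ± 11.3 CPM in the controls (-1.11 ± 0.27, edgeR adjusted p = 0.0123, or 0.0268 without the 3 libraries).

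Of 9 tested genes known to be induced by hypertonic medium, 4 were called between sites, and 7 without the 3 libraries. These shares were 44.4% and 77.8%, beside 29.8% and 49.8% of all features. The fitted change of these genes was above 0 for 6 of 9 at RRMI, 4 at CROH and 1 at LRMN. The medians were 0.07, -0.00 and -0.21. The largest at RRMI was that of the HSP70 gene HSPA1A, picked out after its values were seen, at 1.57 ± 0.96. HSPA1A had only 200 counts over all libraries, its RRMI dishes ran from 0 to 3.45 CPM and overlapped with the controls, and its change was -0.71 ± 1.44 at CROH and -1.59 ± 1.66 at LRMN. It was called at none of these sites and not between sites (edgeR F test, adjusted p = 0.535). HSPA1A and HSPA1B are near-identical copies, and how reads were split between them is uncertain. HSPA4L, the gene of the osmotic stress protein OSP94, was 85.0 ± 7.35 CPM in the controls and had its lowest level at RRMI, where the dishes ran from 51.5 to 71.7 CPM, all below the controls. The RRMI change was -0.43 ± 0.13, with an edgeR adjusted p of 0.127, or 0.00274 without the 3 libraries. The growth arrest gene GADD45B fell at CRMI (-0.99 ± 0.19, edgeR adjusted p = 0.00126), and GADD45A and the second HSP70 gene, HSPA1B, also differed between sites (edgeR F test, adjusted p = 0.000123 and 0.0258). ATP1B1, a subunit of the sodium pump, was picked out after its values were seen. It had 3230 ± 356 CPM in the controls, 5049 ± 597 at RRMI, 4516 ± 554 at CROH and 5116 ± 366 at LRMN, with every dish of these sites above the controls. Its edgeR adjusted p at RRMI was 0.413 with all libraries and 8.48e-06 without the 3 libraries, with log2 changes of 0.64 and 0.63.

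Among the volume-regulated channels 1 of 7 tested genes was called between sites, and 2 without the 3 libraries. These shares were 14.3% and 28.6%, beside 29.8% and 49.8% of all features. The gene called with all libraries was LRRC8A, the essential subunit of the volume-regulated anion channel (edgeR F test, adjusted p = 0.00976). It ran from IHIN at the lowest to GRNY at the highest. Of the other aquaporins only 2 could be tested, and neither was called with all libraries, while 1 was without the 3 libraries. AQP9, the main glycerol channel of liver cells, had 11 counts over all libraries, and AQP11 had 201, so neither was tested.

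**Figure D5:**
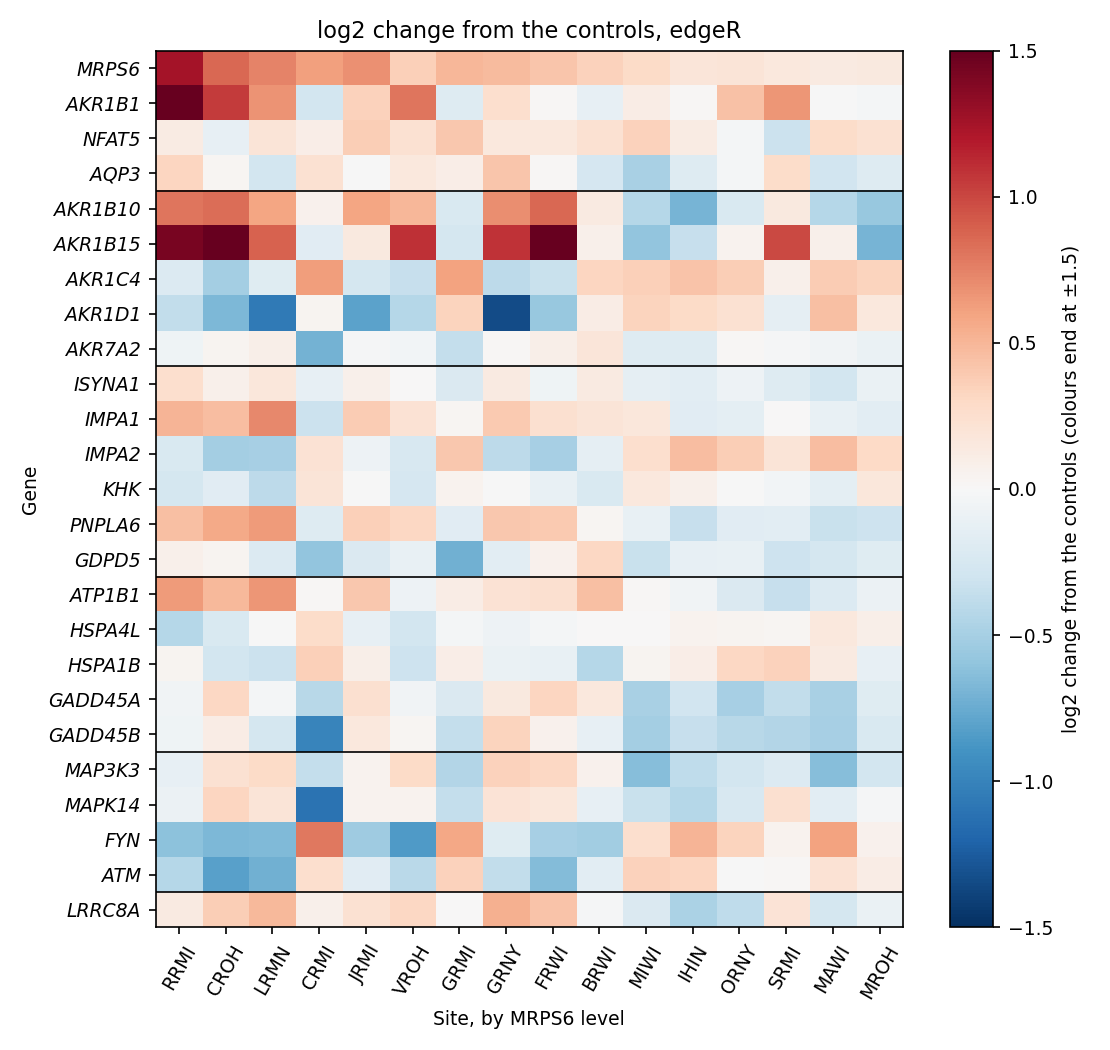
Log2 change from the controls in the edgeR fit (colour, from blue for lower to red for higher, ending at ±1.5) for the named genes (rows) at the 16 sites (columns, by MRPS6 level). Horizontal lines part the 4 main genes, other aldo-keto reductases, osmolyte enzymes, hypertonicity-induced genes, signalling genes and the channel gene. MRPS6 is red at all sites, AKR1B1 is darkest at RRMI, and AKR1B10, PNPLA6, IMPA1 and ATP1B1 are red at RRMI, CROH and LRMN. IMPA2, KHK, AKR1C4, AKR1D1, FYN and ATM are in shades of blue at these sites.

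The relatives of AKR1B1 offered a comparison within its family. Of 11 tested aldo-keto reductases 6 were called between sites, and 10 without the 3 libraries, beside 29.8% and 49.8% of all features. AKR1B10, a retinal and aldehyde reductase encoded beside AKR1B1 at chr7:134527592-134541408, was 20.6 ± 2.77 CPM in the controls. It rose at CROH to 36.8 ± 10.8 CPM (0.84 ± 0.20, edgeR adjusted p = 0.0171) and at RRMI to 36.1 ± 4.51 CPM (0.81 ± 0.20, edgeR adjusted p = 0.0271), with every dish above the controls. FRWI had an AKR1B10 level as high, 37.5 ± 5.02 CPM (0.86 ± 0.20, edgeR adjusted p = 0.0709, or 0.00449 without the 3 libraries), while AKR1B1 changed there by 0.01 ± 0.31. IHIN had the lowest AKR1B10 level, 12.7 ± 2.65 CPM (-0.69 ± 0.22). AKR1B15, a close copy of AKR1B10 and picked out after its values were seen, had 305 counts in all and fitted changes of 1.42 ± 0.55 at RRMI, 1.60 ± 0.56 at CROH and 1.62 ± 0.56 at FRWI. With all libraries it was called at none of these sites (edgeR adjusted p = 0.119 at CROH, or 0.0384 without the 3 libraries), and how reads were split between AKR1B10 and AKR1B15 is uncertain.

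Over the 11 relatives the fitted change was above 0 for 6 at RRMI (median 0.06), 9 at CROH (median 0.24) and 9 at LRMN (median 0.36), beside medians over all features of -0.00, 0.01 and -0.01. The genes below 0 at CROH and LRMN were AKR1D1 and AKR1C4. AKR1D1, the reductase of bile acid synthesis, had its lowest level at GRNY (-1.34 ± 0.42, edgeR adjusted p = 0.181, or 0.00211 without the 3 libraries), and its change at RRMI was -0.37 ± 0.39. AKR1C4, a hepatic hydroxysteroid dehydrogenase, ran from CROH at the lowest to CRMI at the highest (edgeR F test, adjusted p = 0.00242). AKR7A2, an aldehyde reductase, had its lowest level at CRMI.

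The other subunits of the small mitochondrial ribosome did not follow the MRPS6 entry upward. Of 26 tested, 10 were called between sites (38.5%), and 17 without the 3 libraries (65.4%), beside 29.8% and 49.8% of all features. Their fitted changes at RRMI ran from -0.35 to 0.39, with a median of -0.08 and 6 of 26 above 0, where MRPS6 had 1.25. At CROH the median was -0.23 and at LRMN -0.16. None was called higher at these 3 sites with all libraries, and without the 3 libraries 1 was called higher, at LRMN, while 4 were called lower at CROH and 3 at LRMN, where 5.93% and 8.2% of all features were lower. MRPS2 had the largest change above 0 at CROH (0.86 ± 0.35) and LRMN (0.77 ± 0.35), and MRPS33, MRPS15 and MRPS18C also differed between sites (edgeR F test, adjusted p = 0.000580, 0.00140 and 0.00140).

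Nor, in the fit of all libraries, did the genes beside MRPS6 on chromosome 21 rise as far as MRPS6 at RRMI, CROH or LRMN. Of 10 tested, 1 was called between sites, GART, a purine synthesis enzyme (edgeR F test, adjusted p = 0.0102), and 4 were called without the 3 libraries, beside 29.8% and 49.8% of all features. Their changes at RRMI ran from -0.29 to 0.35, with a median of -0.00. They ran from -0.43 to 0.17 at CROH (median 0.01) and from -0.64 to 0.25 at LRMN (median 0.00). None was called at these sites with all libraries. Without the 3 libraries none was called at RRMI, 1 was called lower at CROH, and 2 were called higher and 2 lower at LRMN. In that fit 5.93% of all features were lower at CROH, and 9.34% were higher and 8.2% lower at LRMN. ATP5PO, a subunit of the mitochondrial ATP synthase, was 783 ± 66.7 CPM in the controls and 800 ± 59.3 CPM at RRMI (0.03 ± 0.21). At LRMN the ATP5PO change was 0.25 ± 0.21, or 0.26 ± 0.09 (edgeR adjusted p = 0.0368) without the 3 libraries. ATP5PO was called between sites only without them (edgeR F test, adjusted p = 0.714 with all libraries and 0.000524 without the 3). The GART change was -0.05 ± 0.19 at RRMI. At LRMN it was -0.51 ± 0.20, or -0.51 ± 0.18 (edgeR adjusted p = 0.0364) without the 3 libraries. No test set MRPS6 against these neighbours, and the values are given side by side.

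The features whose group levels followed those of the 4 genes most closely were found by Pearson correlation over the 17 groups, among 6710 features with a mean level of at least 1 CPM. For MRPS6 they were NRN1 (r = 0.921), PGC (0.911), HS6ST1 (0.899), HDAC3 (0.896) and INPP1 (0.892), and the most opposed was BCAS1 (-0.878). INPP1 encodes an inositol polyphosphate phosphatase. For AKR1B1 they were CSRP1 (r = 0.885), FOXA3 (0.856), CYP1A1 (0.838), NAT9 (0.825) and CYP3A7 (0.793), with GATB (-0.860) and MYO1E (-0.843) most opposed. CYP1A1 is the classical target of the aryl hydrocarbon receptor, and CYP3A7 is a fetal-type hepatic cytochrome P450. The likeness lists depended on the libraries. Without the 3 libraries NRN1 and PGC were still among the first 5 for MRPS6, beside ETNPPL, NADK2 and CCL20, and CSRP1 and FOXA3 among those for AKR1B1, beside PLPP3, HDAC3 and CAB39L.

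Of 4 genes described above, the correlation with MRPS6 was 0.816 for ATP1B1, 0.735 for AKR1B10, 0.733 for PNPLA6 and 0.565 for IMPA1. Without the 3 libraries it was 0.857, 0.764, 0.748 and 0.787, so that IMPA1 moved from last to second. These 4 genes all had fitted changes above 0 at RRMI, CROH and LRMN, the sites with the highest MRPS6 levels. A positive coefficient was therefore partly fixed by choosing them. Coefficients are not given for IMPA2, KHK, FYN, ATM, HSPA4L, AKR1C4 and AKR1D1, whose fitted changes were below 0 at these sites. For AKR1B1 the values were 0.622 for IMPA1, 0.618 for PNPLA6, 0.594 for AKR1B10 and 0.527 for ATP1B1. MAP2K4P1 was closest to NFAT5 (r = 0.840) and LETM2 to AQP3 (0.824), and both were also first without the 3 libraries. Among the 6710 features, with all libraries, ATP1B1, AKR1B10, PNPLA6 and IMPA1 ranked 21, 73, 75 and 506 by their coefficient with MRPS6. For AKR1B1, IMPA1, PNPLA6, AKR1B10 and ATP1B1 ranked 182, 197, 297 and 599. The closest features were picked from 6710 over 17 groups from 1 pool of cells, and all coefficients are given as a description.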

How the data were processed

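TempO-Seq libraries of 71 dishes were analysed, 63 from 16 sites and 8 controls, though the labels' protocols describe 16 control dishes. The deposited table holds expected counts per gene, made by the authors with Salmon against GRCh38, per the submitters' processing notes. No version, probe manifest or strand setting is given in the sources used here. The table is headed as normalized, but its totals differ between libraries and, values step by what 1 read is worth (0.992 to 1.00), with 93.4% of those under 20 no more than 0.02 from a whole number of reads in the median library. It was therefore used as counts. It is held in part and ends within the symbols starting with RAI, and later genes were not analysed here. 1 incomplete entry was left out.

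Expected counts were rounded. Features with a count minimum of 10 by edgeR's filterByExpr (6947 of 12425 with counts) were fitted with edgeR 4.0.16 in R 4.3.3 by the quasi-likelihood test, with TMM factors and 1 mean for each of 17 groups (54 residual degrees of freedom, biological coefficient of variation 0.257). The 16 contrasts with the controls and an F test between sites were adjusted by Benjamini-Hochberg over all features at 0.05. A group level is its summed counts over its summed effective library sizes. Intervals are exact Poisson 95%. Likeness used log2(group CPM + 0.5), and deviations within groups left out VROH 2, CRMI 1 and SRMI 3. P-values measure only the spread between dishes of 1 cell pool.

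Alternatives were DESeq2 1.42.0, edgeR's RLE factors, no filter, the mean of library CPM, the replicate number as a block, each library left out and, chosen after seeing the data, those 3 libraries left out together. On simulated counts for RRMI against the controls (6861 features, 50 changed genes per size), 34% of 1.5-fold, 82% of 2-fold, 92% of 3-fold and 98% of 4-fold changes were recovered, with 10 false calls. No pair of dishes was a repeat (lowest chi-square per degree of freedom 4.58 over 121 pairs).

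The 4 genes and all lists were chosen with earlier results of these data known. Named genes were, from each list, up to 4 with the smallest p of the F test among those called, plus IMPA1, AKR1B10, HSPA4L, ISYNA1, GDPD5, ATP5PO, AQP9 and AQP11, and for likeness the 5 highest and 3 lowest features. ATP1B1, AKR1B15 and HSPA1A were added after their values were seen.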

Additional observations from a re-analysis of the deposited data

Results flagged for a closer look

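In 3 of 64 cases (the 4 genes in each of 15 sites with 4 dishes and in the 8 controls), 1 dish lay farther from the others than Dixon's 95% critical value of 0.829 for 4 samples allows, and chance alone marks about 1 group in 20. MRPS6 was 0 CPM in VROH 2, the library with 8840 counts, and 471 to 497 CPM in the other 3 VROH dishes. NFAT5 was 290 CPM in IHIN 3 (289.987 before rounding) and 254 to 258 CPM in the other 3 IHIN dishes. AQP3 was 3.11 CPM in CROH 3, from 22 counts, and 1.10 to 1.29 CPM in the other 3 CROH dishes, and without CROH 3 the AQP3 change at CROH moved from 0.03 to -0.52 on the log2 scale.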

How the results depend on the processing

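The changes of the 4 genes at the 16 sites (64 values) were recomputed under 1016 combinations with alternatives. In 1006 they kept their direction and side of the threshold or moved by less than the spread between dishes, 10 moved further and none of the called values reversed. MRPS6 turned from 0.13 to -0.01 at MAWI and from 0.15 to -0.00 at MROH with the replicate block. Beside those given above, AKR1B1 at FRWI moved from 0.01 to -0.54 without FRWI 1, AQP3 at MIWI from -0.49 to -1.12 without MIWI 2, and NFAT5 at VROH from 0.23 to -0.06 without VROH 3. The features called between sites numbered 2073, and 1652 without the filter, 2463 with DESeq2, 3446 without VROH 2, CRMI 1 and SRMI 3, and 1926 to 2624 with 1 library left out. Calls against the controls, summed over sites, numbered 982, and 510 without the filter, 1663 with DESeq2, 4528 without the 3 libraries, and 743 to 2142 with 1 library left out. The lowest was without CTRL 2 and the highest without VROH 2, and the count was 1475 without CRMI 1. The osmotic list genes called numbered 16, and 9 without the filter, 18 with DESeq2, 27 without the 3 libraries, and 14 to 21 with 1 library left out. The causes of these differences were not tested.

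The spans over sites with 1 library left out were 1.73 to 2.16 for AKR1B1, 1.03 to 1.17 for MRPS6, 0.549 to 0.875 for NFAT5 and 0.661 to 1.49 for AQP3, the last being highest without MIWI 2. With the replicate number as a block (67 libraries), 1741 features were called between sites, 252 against the controls and 11 of the list genes. The block spans came from a separate linear fit of log2(CPM + 0.5), which kept VROH 2 with its 0 CPM of MRPS6. They were 1.82 for AKR1B1, 3.11 for MRPS6, 1.07 for NFAT5 and 0.763 for AQP3. In the edgeR fit with the block, MRPS6 changes ran from -0.01 at MAWI to 1.10 at RRMI. Those of NFAT5 ran from -0.36 at SRMI to 0.39 at GRMI. Any pairing of the dishes by these numbers was weak, and it was not tested against chance. Of 421 pairs of libraries with the same number 173 correlated above 0.1 in their deviations (median 0.0255, against -0.00195 for different numbers). For 23 of 60 libraries the mean correlation was higher with libraries of their own number than with those of any other number.

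Depth limits AKR1B1 and AQP3, with 1107 and 756 counts over all libraries, far more than MRPS6 and NFAT5. VROH 2 is too shallow for any of the 4 genes. Whether the reads listed under MRPS6 include reads of SLC5A3 transcripts is not known here, and mRNA levels do not measure NFAT5 activity.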
